A study of Homo sapiens with 6 samples.

Results

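The miR-23/27/24 miRNAs are made from a pair of related gene clusters, and the products of both were followed in Huh7 cells, a human hepatoma cell line, after delivery of the circular RNA hsa_circ_0098181. The 10 mature miRNAs described here were chosen by name from the 2588 mature human miRNAs of the expression table, and they are products of the 23a/27a/24-2 and the 23b/27b/24-1 cluster. Huh7 cells were transfected with a plasmid carrying hsa_circ_0098181 (3 samples, called overexpression) or with its control plasmid (labelled NC, 3 samples, called control) using Lipofectamine 2000, and total RNA was taken 48 h later for miRNA sequencing. The circular RNA itself is not in the table, so its level could not be checked in these libraries. The labels do not say whether the samples of a group came from separate cultures, so that p-values measure the spread between these samples, which may be technical.

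MicroRNAs are short RNAs that guide Argonaute proteins to messenger RNAs, mainly through their seed, bases 2 to 8 counted from the 5′ end. Each is cut from a hairpin precursor whose arms can both give a mature product, named 5p and 3p, and usually the product of a single arm is kept while the other is degraded. The 3 precursors of a miR-23/27/24 cluster are transcribed together, and these miRNAs are known from work on blood vessel growth, lipid metabolism, TGF-β signalling and the cell cycle, miR-27 also as a regulator of lipid genes in hepatocytes.

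In RefSeq (GRCh38.p14), the precursors MIR24-2, MIR27A and MIR23A lie within 373 bases on the minus strand of chromosome 19, from 13836287 to 13836659. The precursors MIR23B, MIR27B and MIR24-1 lie within 881 bases on the plus strand of chromosome 9, from 95085208 to 95086088. The chromosome 19 cluster is inside the long non-coding host gene MIR23AHG (13834516 to 13842918), and in GENCODE release 29 it is in the exon of AC020916.1 (ENSG00000267519.6). The chromosome 9 cluster is inside the protein-coding gene C9orf3 (ENSG00000148120.16, AOPEP in RefSeq), which encodes an aminopeptidase. There MIR23B and MIR27B are intronic in all 7 annotated transcripts that span them, whereas MIR24-1 overlaps 1 annotated exon. The submitters' processing notes name the same build, hg38.

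The mature sequences of the 3p arm are shown because they set how the members can be told apart. They are from RefSeq, 5′ to 3′, with the seed in capitals.
hsa-miR-23a-3p: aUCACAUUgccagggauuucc
hsa-miR-23b-3p: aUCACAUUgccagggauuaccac
hsa-miR-27a-3p: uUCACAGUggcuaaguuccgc
hsa-miR-27b-3p: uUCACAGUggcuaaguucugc
hsa-miR-24-3p: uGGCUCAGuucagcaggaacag
miR-23a-3p and miR-23b-3p share their seed and their first 18 bases, and over the 21 bases compared they differ by U19A (miR-23a-3p base, position from the 5′ end, miR-23b-3p base). miR-27a-3p and miR-27b-3p also share 18 bases and differ by C19U. miR-24-3p has the same sequence in both clusters, so that its reads cannot be assigned to a chromosome. No other miRNA of the table with a RefSeq sequence (2281 of 2588) had the seed of miR-27 or of miR-24-3p, and miR-23c was the only further miRNA with the seed of miR-23.

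The 5p products are shown for the same reason, and because they differ more.
hsa-miR-23a-5p: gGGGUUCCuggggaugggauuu
hsa-miR-27a-5p: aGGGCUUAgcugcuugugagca
hsa-miR-27b-5p: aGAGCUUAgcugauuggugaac
hsa-miR-24-1-5p: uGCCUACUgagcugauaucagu
hsa-miR-24-2-5p: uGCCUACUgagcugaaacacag
miR-27a-5p and miR-27b-5p differ at 8 of 22 bases, including G3A within the seed, so that they have different seeds although their partners of the 3p arm share theirs. miR-24-1-5p and miR-24-2-5p share a seed and their first 15 bases. How reads matching more than 1 miRNA were assigned is not given in the sources used here, and a read cut short before base 19 would fit both miR-23 or both miR-27 products. The split between a and b members of the 3p arm is therefore uncertain.

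The libraries held 7144798 to 10786295 counts. miR-122-5p, the hepatocyte miRNA, was the most abundant with 32.2% of all counts, and the muscle marker miR-133a-3p had 3 counts in all, whereas the endothelial marker miR-126-3p was present at 3053 to 3271 TPM in every library. The other marker miRNAs of the lists used, of blood cells, fibroblasts and smooth muscle, skeletal and heart muscle, and neurons (miR-124-3p), were at or below 96.2 TPM. Of these, miR-142-3p of blood cells was at 9.23 ± 0.74 TPM (SD, n = 3) with hsa_circ_0098181 and at 14.1 ± 2.44 TPM (SD, n = 3) with the control plasmid. Its log2 fold change was -0.50 (adjusted p = 0.314 from edgeR). Without control replicate 3 its adjusted p was 0.0182 from edgeR, in a fit where 9.91% of all miRNAs passed. miR-223-3p of the same blood list went the other way, at 2.02 TPM with hsa_circ_0098181 and 1.52 TPM with the control plasmid (log2 fold change 0.45, adjusted p = 0.715 from edgeR). miR-451a, also of that list and below the filter on low counts, was at 0.61 and 0.78 TPM. The part of miR-142-3p in other results was not tested. TPM here means the count as a part of all counts of its library, on the usual TPM scale and with no length correction. Control replicate 3 stood apart from the other controls, with a chi-square per degree of freedom of 132 and 102 against control replicates 1 and 2, while the other pairs within groups gave 15.2 to 29.3. Results that it changed most are therefore also given without it.

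Of the 10 members, 9 had at least 1 count and 7 passed the filter on low counts and were tested. Together they took 1.63% to 1.94% of a library, and nearly all of this was the 3p arm, with 16189 to 19269 TPM against 57.0 to 93.6 TPM for the 5 members of the 5p arm. miR-27b-3p alone made up 55.2% to 61.2% of the reads of the members. The mature forms are 21 to 23 bases long, so that length hardly enters the comparison of levels. Differences in how well a library captures each sequence were not tested.

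miR-27b-3p was the highest member and the miRNA with rank 17 of the table. Its level was 10338, 10010 and 9449 TPM in overexpression replicates 1 to 3 and 10019, 10113 and 10679 TPM in control replicates 1 to 3. miR-24-3p followed with 2795, 2374 and 2593 TPM in the overexpression samples and 2754, 2916 and 3162 TPM in the control samples. For both miRNAs the groups overlapped, and overexpression replicate 2 had the lowest level of miR-24-3p.

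miR-27a-3p, the chromosome 19 form of miR-27, was measured at 1864, 1759 and 1704 TPM in the overexpression samples and at 1904, 2063 and 2343 TPM in the controls. Every overexpression sample was below every control sample, with a narrow gap between overexpression replicate 1 and control replicate 1. miR-23a-3p was at 1372, 1304 and 1478 TPM in the overexpression samples and at 1427, 1468 and 1893 TPM in the controls, so that the groups overlapped and control replicate 3 was far above the rest. miR-23b-3p was at 918, 857 and 965 TPM with hsa_circ_0098181 and at 979, 989 and 1192 TPM with the control plasmid, and here the groups did not overlap. In TPM, 16.3% of all miRNAs tested had every overexpression sample below every control sample. After the TMM normalization used below, the groups overlapped for miR-27a-3p and for miR-23b-3p.

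The 5p products were lower by more than an order of magnitude. miR-27a-5p was at 39.6, 32.7 and 39.2 TPM in the overexpression samples and at 40.9, 42.2 and 62.1 TPM in the controls, which did not overlap. Such a separation held for 16.3% of all miRNAs tested in TPM. It held for 6.52% after the TMM normalization used below, miR-27a-5p among them. miR-27b-5p was at 30.7, 23.4 and 28.1 TPM in the overexpression samples and at 35.8, 34.6 and 30.5 TPM in the controls, where control replicate 3 was the lowest control and lay just below overexpression replicate 1.

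The remaining 3 members were at the edge of detection and were not tested. miR-23a-5p had 4, 7 and 3 counts in the overexpression samples and 7, 11 and 6 counts in the controls. miR-24-1-5p had 3 counts in each group. miR-24-2-5p was at 0 counts in all 6 libraries, which allows up to 3 counts per library, or 0.278 to 0.42 TPM by library. These limits cover counting error only, and they hold only if the annotation and counting could assign reads to miR-24-2-5p, which the sources used here do not say. For miR-24-1-5p and miR-24-2-5p, this depth could not show a difference.

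**Figure D1:**
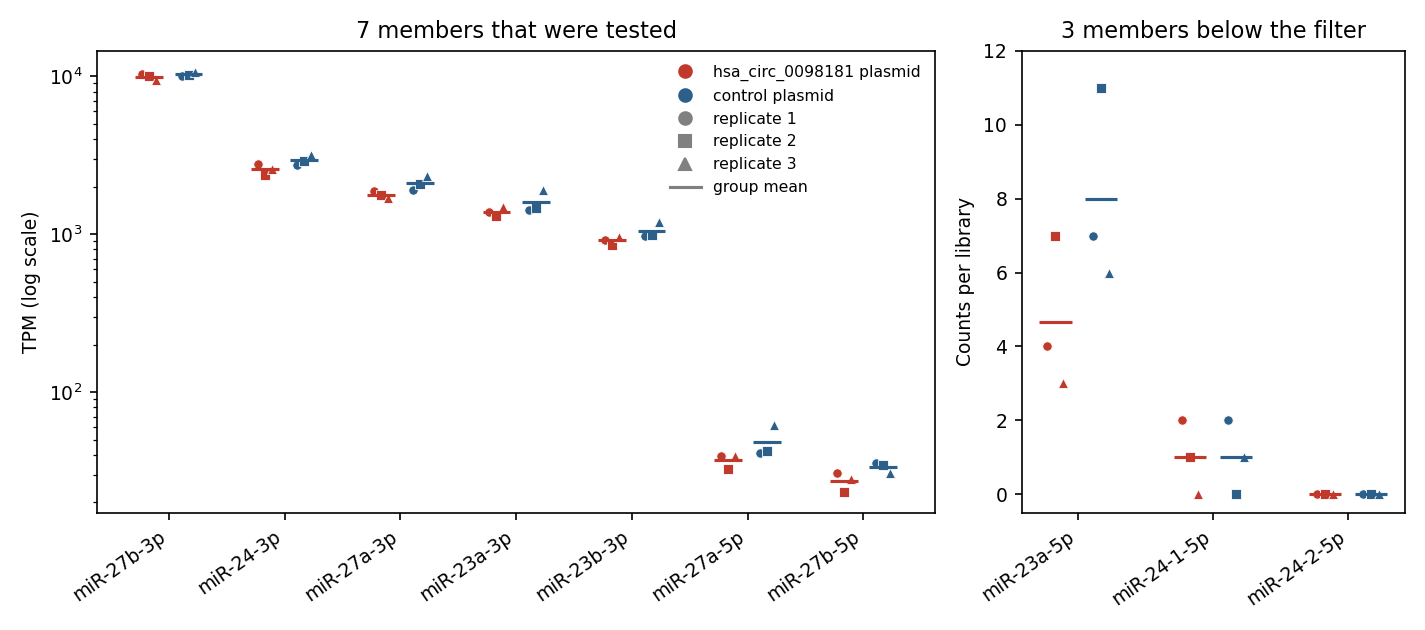
Level of each member by sample, with TPM on a log axis for the 7 tested members (left) and counts per library on a linear axis for the 3 members below the filter (right). Points are samples, horizontal lines are group means (n = 3), and the 3p members lie between 857 and 10679 TPM while the tested 5p members lie between 23.4 and 62.1 TPM.

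By the mean TPM over all samples the order was miR-27b-3p, miR-24-3p, miR-27a-3p, miR-23a-3p, miR-23b-3p, miR-27a-5p, miR-27b-5p, miR-23a-5p, miR-24-1-5p and miR-24-2-5p. Of the 9 neighbouring pairs, 8 kept this order in 6 of 6 samples. Each had p = 0.03125 in a two-sided exact sign-flip permutation test of log2(TPM + 1), the smallest p that 6 samples allow. The adjusted p over the 9 pairs was 0.0352 for each of these 8 (permutation test). The order and its pairs were taken from these same values, so the p-values describe how constant the steps were over samples. They are no independent support for the order. In the 3p arm the smallest step was that from miR-27a-3p to miR-23a-3p, a mean log2 difference of 0.38 ± 0.11 (SD, n = 6), and the next was from miR-24-3p to miR-27a-3p, with 0.51 ± 0.074 (SD, n = 6). The widest steps were those from miR-23b-3p to miR-27a-5p, with 4.51 ± 0.15 (SD, n = 6), and from miR-27b-5p to miR-23a-5p, with 4.18 ± 0.30 (SD, n = 6). miR-24-1-5p and miR-24-2-5p could not be ordered beyond their spread (exact permutation test, adjusted p = 0.125), since both were below the limit of 3 counts in every library.

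The products of the same primary transcript were thus counted at unequal levels. Differences in how well a library captures each sequence were not tested, and the split between a and b members of the 3p arm is uncertain. On chromosome 9, miR-27b-3p exceeded its neighbour miR-23b-3p in every library. On chromosome 19, miR-27a-3p was above miR-23a-3p by less, and the b form was higher in the miR-27 pair but the a form was higher in the miR-23 pair. miR-24-3p sums the output of both clusters, and its level was 1.67 to 2.04 times that of miR-23a-3p but only 0.237 to 0.296 times that of miR-27b-3p.

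The balance of the arms, as counted, differed between the precursors. The count of the 3p arm was 37.7 to 53.8 times that of the 5p arm for miR-27a, but 280 to 428 times for miR-27b, without an overlap between these ranges. The arm ratios of the miR-27 and miR-23 precursors take the split between a and b members of the 3p arm as counted, which is uncertain. Between miR-27a and miR-27b, the 3p products had a mean of 1940 against 10101 TPM, but the 5p products 42.8 against 30.5 TPM. For miR-23a the 3p arm was 1158 to 4084 times as high, resting on 3 to 11 counts of the 5p arm per library. miR-23b-5p, the passenger of miR-23b-3p and not among the 10 members, was at 17.5 to 19.8 TPM, and the ratio of the arms was 48.7 to 61.3. miR-24-3p was counted 63905 times against 3 counts of its 5p products in the overexpression group, a ratio of 21302 (exact Poisson 95% interval 7289 to 103294, counting error only), and 77606 times against 3 counts in the control group, a ratio of 25869 (8852 to 125439.6). All of these 5p counts were those of miR-24-1-5p, and the ratios would be lower if reads of miR-24-2-5p could not be assigned.

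Between the groups, none of the arm ratios differed beyond the spread of the samples. The log2 ratio of miR-27b-3p to miR-27b-5p was 8.39, 8.74 and 8.39 with hsa_circ_0098181, against 8.13, 8.19 and 8.45 with the control plasmid. The difference was 0.25 (two-sided exact permutation test, p = 0.3, adjusted p = 0.84 over the 7 ratios tested), and the groups overlapped through control replicate 3. With a sample left out it was 0.14 to 0.35, the lowest without overexpression replicate 2 and the highest without control replicate 3. In the latter case the groups did not overlap. The differences for miR-27a (0.12, exact permutation p = 0.5) and miR-23a (0.47, exact permutation p = 0.4) were smaller than the SD within either group. With a sample left out the difference for miR-27a was 0.0050 to 0.19, the lowest without control replicate 3, and that for miR-23a was 0.17 to 0.80, the lowest without control replicate 2 and the highest without overexpression replicate 2. For these tests 3 samples against 3 cannot give a p below 0.1. The test of miR-24 (exact permutation p = 0.6) rested on 0 to 2 counts of the 5p products per library and turned its direction when overexpression replicate 1 or control replicate 2 was left out.

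The ratio of the paralogs depends neither on the library size nor on composition factors, and it asks whether the chromosome 19 and the chromosome 9 form moved apart. In the 3p arm it takes the split of a and b reads as counted, which is uncertain, and the part of shared reads in it was not tested. miR-23a-3p and miR-23b-3p kept almost the same proportion in every library, with miR-23a-3p at 59.9%, 60.4% and 60.5% of their sum with hsa_circ_0098181 and at 59.3%, 59.8% and 61.4% with the control plasmid. The difference of the log2 ratio was 0.0063 (exact permutation p = 0.9), and it changed sign when overexpression replicate 3, control replicate 1 or control replicate 2 was left out.

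By the split as counted, miR-27a-3p was a smaller share of miR-27 in the overexpression samples than in the controls. It made up 15.3%, 14.9% and 15.3% of the sum of miR-27a-3p and miR-27b-3p with hsa_circ_0098181 and 16.0%, 16.9% and 18.0% with the control plasmid. The groups did not overlap, and the overexpression samples lay within a much narrower range than the controls. The log2 ratio of miR-27a-3p to miR-27b-3p was -2.48 ± 0.021 (SD, n = 3) against -2.29 ± 0.10 (SD, n = 3), a difference of -0.19 with p = 0.1 in the two-sided exact permutation test, the smallest this design allows. After adjustment over the 7 ratios it did not pass the threshold (exact permutation test, adjusted p = 0.7). With each sample left out in turn the difference was between -0.24 and -0.14, and it was -0.14 without control replicate 3. Its sign could not change, because the groups did not overlap.

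The 5p products of the same precursors did not show this separation. The log2 ratio of miR-27a-5p to miR-27b-5p was 0.37, 0.48 and 0.48 with hsa_circ_0098181, against 0.19, 0.29 and 1.02 with the control plasmid, a difference of -0.058 (exact permutation p = 1). Control replicate 3 alone was above the overexpression samples, and without it the difference was 0.20.

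**Figure D2:**
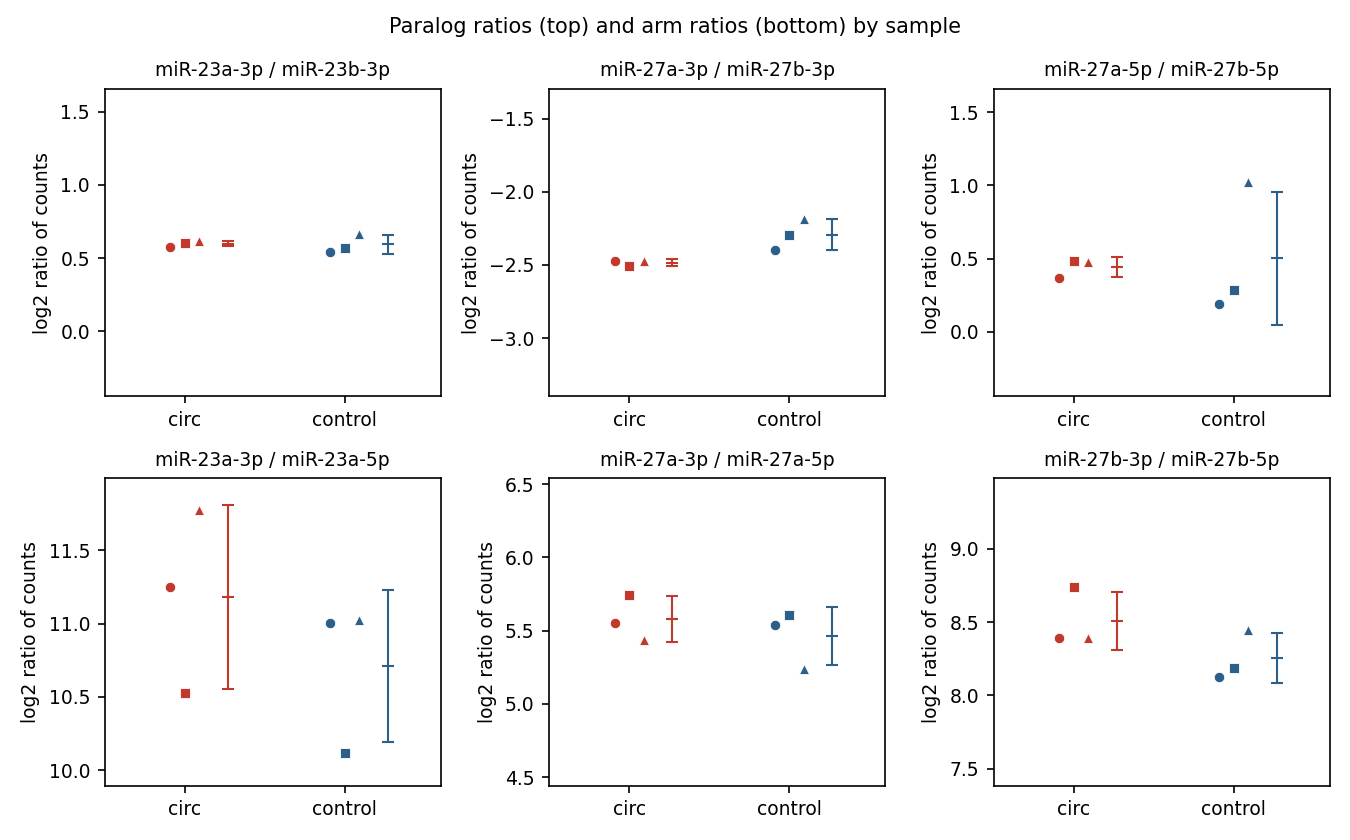
Log2 ratios of counts by sample for the paralog pairs (top) and for the arms of a precursor (bottom), with 0.5 added to each count and every panel spanning the same range of log2 units. Points are samples and the bars to their right are mean ± SD (n = 3), and only for miR-27a-3p over miR-27b-3p did the groups (circ, hsa_circ_0098181 plasmid) not overlap, at -2.51 to -2.47 against -2.40 to -2.19.

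Whether delivery of hsa_circ_0098181 was accompanied by a change of these miRNAs was tested on counts with edgeR's quasi-likelihood test after TMM normalization, which scales the libraries so that most miRNAs do not change. None of the 7 tested members had an adjusted p under 0.05 (0 of 7), and 0 of 7 had an unadjusted p under 0.05. Over all 552 miRNAs tested, 0% passed at the adjusted threshold (0 miRNAs) and 9.06% at the unadjusted one (50 miRNAs). DESeq2 gave 0 of 7 members at either threshold, with 7.43% of all miRNAs at an unadjusted p under 0.05. limma on log2(TPM + 1) gave 0 of 7 adjusted, where 0.543% of all passed, and 2 unadjusted, miR-27a-3p and miR-27a-5p, where 12.9% of all did. edgeR with the library size alone also gave 0 of 7 adjusted (0.543% of all) and 3 of 7 unadjusted, miR-27a-3p, miR-27a-5p and miR-27b-5p (12.7% of all), and edgeR without a filter gave 0 of 9 members with a count (0.439% of 1366 miRNAs). In such bulk samples, fewer cells that express a miRNA and less of it per cell cannot be told apart.

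The log2 fold changes of the members were small. miR-27b-3p was at 0.068 (95% interval -0.085 to 0.22, adjusted p = 0.743 from edgeR), and it was the only tested member above 0. miR-24-3p was at -0.071 (-0.24 to 0.098, adjusted p = 0.758 from edgeR). The miR-23 pair had nearly the same value, with -0.085 for miR-23a-3p (-0.30 to 0.13) and -0.087 for miR-23b-3p (-0.28 to 0.11). miR-27a-3p was at -0.13 (-0.31 to 0.058, adjusted p = 0.617 from edgeR). The 5p products had the lowest values and the widest intervals, -0.26 for miR-27a-5p (-0.56 to 0.050, adjusted p = 0.598 from edgeR) and -0.19 for miR-27b-5p (-0.48 to 0.092, adjusted p = 0.617 from edgeR). A change of 2-fold lay outside every one of these 7 intervals.

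Of the tested members, 6 of 7 had a log2 fold change below 0, against 49.1% of all miRNAs tested, and their median was -0.087 against 0.0038 for all. With the library size alone, 7 of 7 were below 0, but so were 70.5% of all miRNAs, because this scaling moved the median of all miRNAs to -0.11. Relative to that median, miR-27b-3p was at 0.063 with the library size alone and at 0.064 with TMM, so that its sign flipped with the scaling while its distance from the other miRNAs did not. In TPM, 3 of 7 members (miR-23b-3p, miR-27a-3p and miR-27a-5p) had every overexpression sample below every control sample, which held for 16.3% of all miRNAs tested. After TMM normalization it held for 1 of 7, miR-27a-5p, and for 6.52% of all.

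Control replicate 3 had the highest TPM of all samples for 6 of 7 members, and for 38.0% of all miRNAs. The exception was miR-27b-5p. After TMM normalization it was the highest for 5 of 7, the exceptions being miR-27b-3p and miR-27b-5p, and for 23.4% of all. Leaving out control replicate 3 brought 9.91% of 565 miRNAs (56) past the adjusted threshold of 0.05 in edgeR, but 0 of 7 members. The log2 fold change of miR-23a-3p then became 0.00024, that of miR-23b-3p -0.043 and that of miR-27a-5p -0.097, while that of miR-27b-5p became -0.30 (adjusted p = 0.0968 from edgeR), the smallest adjusted p of any member in any of the fits made.

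**Figure D3:**
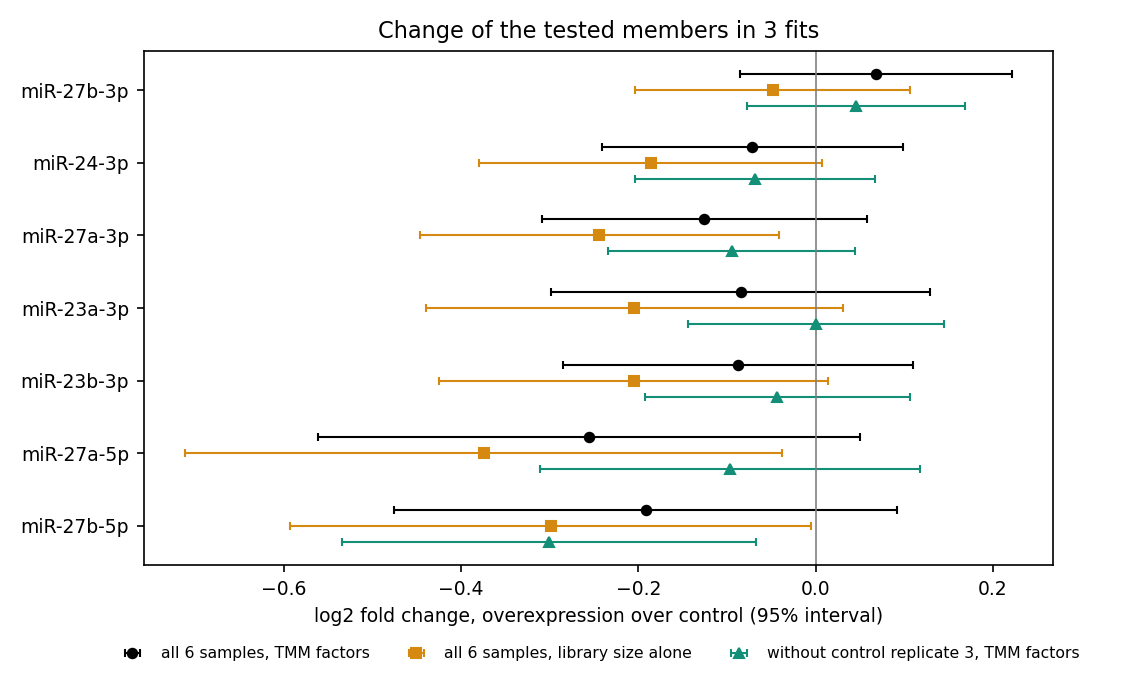
Log2 fold change of overexpression over control for the 7 tested members, with bars for the 95% interval, in edgeR fits with TMM factors, with the library size alone and without control replicate 3. With TMM factors and all 6 samples every interval includes 0, and the members lie between -0.26 and 0.068.

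After TMM normalization, miR-23a-3p and miR-23b-3p, which come from different chromosomes, had the most similar levels of all 21 pairs of tested members over the 6 samples (Pearson's r = 0.97, Spearman's rho = 0.94). These miR-23 forms share their first 18 bases, so that reads counted for both or moved between them would enter this value, which was not tested. The pairs made from the same primary transcript covered a wide range. On chromosome 19, r was 0.90 for miR-23a-3p with miR-27a-5p, 0.73 for miR-27a-3p with miR-27a-5p and 0.57 for miR-23a-3p with miR-27a-3p. On chromosome 9, r was -0.63 for miR-23b-3p with miR-27b-3p, -0.12 for miR-23b-3p with miR-27b-5p and -0.54 for miR-27b-3p with miR-27b-5p. The points share the libraries and their scaling. Without control replicate 3, r was 0.86 for the miR-23 pair, 0.23 for miR-23a-3p with miR-27a-5p, -0.099 for miR-27a-3p with miR-27a-5p, -0.66 for miR-23a-3p with miR-27a-3p and -0.80 for miR-23b-3p with miR-27b-3p. Also without that replicate, r was 0.33 for miR-23b-3p with miR-27b-5p and -0.70 for miR-27b-3p with miR-27b-5p. Without the 2 samples farthest from the median of the first-named member, r was 0.73 for the miR-23 pair. That was no longer the highest, since miR-23b-3p with miR-27a-5p then had 0.80. On chromosome 19 it was then 0.65 for miR-23a-3p with miR-27a-3p, -0.045 for miR-23a-3p with miR-27a-5p and 0.23 for miR-27a-3p with miR-27a-5p. On chromosome 9 it was -0.84 for miR-23b-3p with miR-27b-3p, 0.44 for miR-23b-3p with miR-27b-5p and 0.72 for miR-27b-3p with miR-27b-5p.

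**Figure D4:**
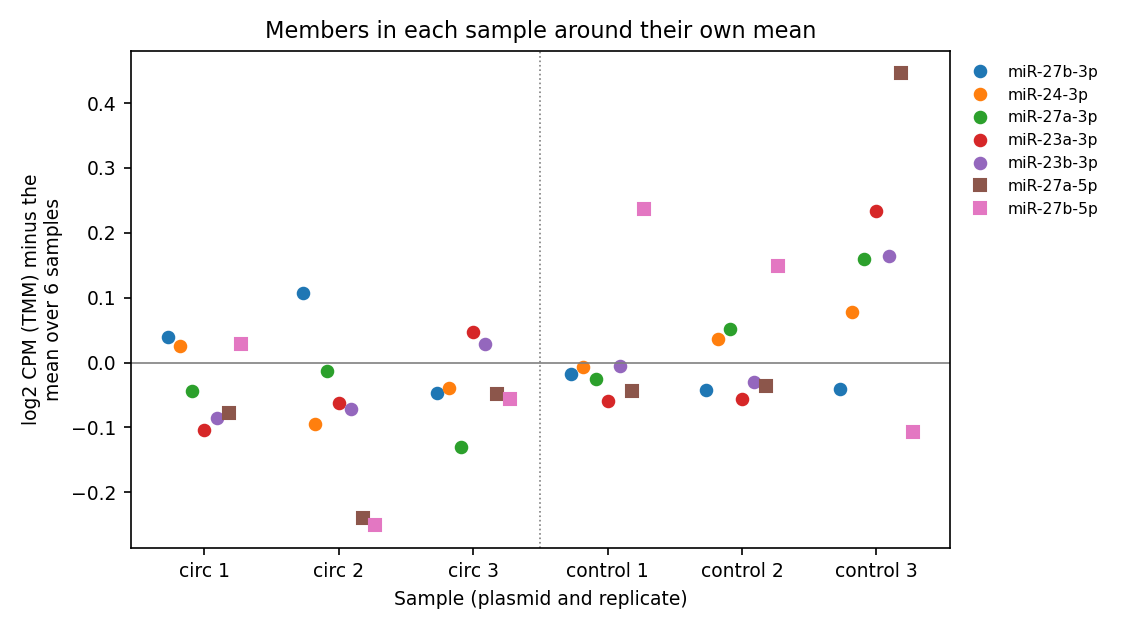
Log2 CPM after TMM normalization of each tested member in each sample, as the difference from the mean of that member over the 6 samples (circles, 3p arm, squares, 5p arm, circ, hsa_circ_0098181 plasmid). In control replicate 3, 5 of 7 members are at their highest, with miR-27a-5p farthest from its mean, while miR-27b-3p and miR-27b-5p are below theirs.

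Among 288 other miRNAs with a mean of at least 100 counts, those whose levels over the 6 samples were most like a member were miR-3615 (r = 0.96) and miR-222-3p (r = 0.93) for miR-23a-3p, and miR-197-3p (r = 0.92) and miR-3615 (r = 0.91) for miR-23b-3p. For miR-27a-3p they were miR-652-3p (r = 0.98) and miR-877-5p (r = 0.96), for miR-27b-3p miR-95-3p (r = 0.96) and miR-181b-3p (r = 0.95), and for miR-24-3p miR-627-5p (r = 0.97) and miR-125a-3p (r = 0.95). Spearman's rho was between 0.60 and 1 for these 10 pairs. Without the 2 samples farthest from the member's median, r fell to 0.028 for miR-3615 and -0.61 for miR-222-3p with miR-23a-3p, to 0.47 for miR-3615 with miR-23b-3p and to 0.37 for miR-95-3p with miR-27b-3p, so that these 4 likenesses rested on those samples. For the other 6 pairs r was then 0.80 to 0.99. With 288 candidates and 6 samples, high values are easily found, and they are given as a description.

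Of the 5 relatives of the members, 3 were tested, and 0 had an adjusted p under 0.05 in either direction in edgeR's test, with miR-128-3p at an unadjusted p under 0.05. miR-128-3p, best known from neurons, has the seed CACAGUG, which is found at bases 3 to 9 of miR-27a-3p and miR-27b-3p.
hsa-miR-128-3p: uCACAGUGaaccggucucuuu
It was at 7134, 7385 and 7611 TPM in the overexpression samples and at 6524, 6405 and 7333 TPM in the controls, with a log2 fold change of 0.25 (95% interval 0.081 to 0.41, adjusted p = 0.314 from edgeR). In TPM the groups overlapped through control replicate 3. After TMM normalization they did not overlap, at 7161 to 8023 CPM in the overexpression samples and 6208 to 6742 CPM in the controls. With that scaling, 8.88% of all miRNAs tested had every overexpression sample above every control sample. Leaving out control replicate 3 gave 0.26 for miR-128-3p (adjusted p = 0.00372 from edgeR), in a fit where 9.91% of all miRNAs passed.

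miR-23b-5p had a log2 fold change of -0.018 (-0.29 to 0.26, adjusted p = 0.949 from edgeR). miR-23c, which has the seed of miR-23, was below the filter with 3, 2 and 2 counts in the overexpression samples and 11, 9 and 5 counts in the controls. These counts did not overlap, nor did the values in TPM or after TMM normalization. Among the 552 miRNAs tested, which do not include miR-23c, 16.3% were separated this way in TPM and 6.52% after TMM normalization. In the fit without a filter the log2 fold change of miR-23c was -1.58 (adjusted p = 0.653 from edgeR). Over 22 bases miR-23c differs from miR-23b-3p by G14U and A22C, while miR-23b-3p had 50228 counts against the 32 of miR-23c.
hsa-miR-23c: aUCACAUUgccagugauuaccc

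MIR3074 is encoded on the strand opposite to MIR24-1. Its 3p product overlaps 19 bases of miR-24-1-5p, and its 5p product overlaps 20 bases of miR-24-3p. miR-3074-3p had 21 to 37 counts per library, more than the 0 to 2 counts of miR-24-1-5p on the other strand, and its log2 fold change was -0.33 (-0.87 to 0.21, adjusted p = 0.653 from edgeR). miR-3074-5p had 1 to 7 counts per library, against 20107 to 29708 for miR-24-3p. The sources used here do not say whether the counting used the strand, so that reads of these opposite products cannot be told apart with certainty.
hsa-miR-3074-3p: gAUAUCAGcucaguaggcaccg
hsa-miR-3074-5p: gUUCCUGCugaacugagccag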

How the data were processed

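miRNA sequencing of 6 Huh7 samples was used, 3 transfected to overexpress hsa_circ_0098181 and 3 controls, grouped by the labels. The authors deposited counts per mature miRNA, without normalization, and TPM values, which equal the counts scaled by the library total to within 0.00303. The submitters' processing notes name TopHat2 2.0.9, Bowtie and hg38, without their roles. Trimming, the miRNA annotation and the handling of multiply matching reads are not given in the sources used here, and would change the counts of near-identical members most. The study's methods give a general test for all of its data and none specific to this sequencing, and a count model was used here.

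Counts were compared with edgeR 4.0.16 in R 4.3.3. miRNAs were kept by filterByExpr (minimum count 10, minimum total 15), scaled with TMM factors and tested by quasi-likelihood (two-sided) with the group as the only term, with Benjamini-Hochberg adjustment over the 552 miRNAs kept and a threshold of 0.05. Intervals of fold changes are 95% intervals from the same fit. Ratios used counts with 0.5 added and, like the order of levels, exact permutation tests in SciPy 1.17.1. The ratio of miR-24-2-5p to miR-24-1-5p was planned but not computed, since both were at or below 3 counts in every library. The fit was tested on simulated data. The alternatives were DESeq2 1.42.0, limma 3.58.1 on log2(TPM + 1) and log2(TPM + 0.1), other scalings and filters, the replicate number as a block, another added count, and leaving out each sample. The total was 7144798 to 10786295 counts per sample. No molecular identifiers are named, so that the limits given for low counts hold for counting error alone.

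The members, lists and tests were chosen with earlier results of these data known. The miRNAs named were the members, 5 relatives by cluster, strand or seed, the most abundant miRNA, cell type markers, and for each 3p member the 2 other miRNAs with the highest Pearson correlation among those with a mean of at least 100 counts. Cell type markers were read in 6 lists (hepatocyte, blood, endothelium, smooth muscle and fibroblast, muscle, neuron). The comparison of miR-23b arms and of miR-24-3p with other members was chosen after values were seen. Sequences and precursor positions are from RefSeq (GRCh38.p14), and host genes from RefSeq and GENCODE release 29.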

Additional observations from a re-analysis of the deposited data

How the results depend on the processing

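The number of members with an adjusted p under 0.05 was 0 in each of the 15 other fits. Over all miRNAs the number was 0 in the test reported, 3 when only the library size was used, 6 without a filter, 3 with limma on log2(TPM + 1), and from 0 to 56 with a sample left out, 56 being the count without control replicate 3. The causes were not tested.

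The log2 fold change of miR-27b-3p, 0.068, was -0.048 with the library size alone, -0.010 when miR-122-5p was taken out of the library size, and -0.049 with limma at either added TPM. In these fits 63.0% to 70.5% of all miRNAs were below 0. With a sample left out it was between 0.026 and 0.12, and that of miR-23a-3p between -0.14 and 0.00024. The other 5 tested members stayed below 0 in all fits made. With a sample left out, the difference of the log2 ratio was between -0.93 and 0.37 for the arms of miR-24, between -0.019 and 0.043 for miR-23a-3p over miR-23b-3p, and between -0.21 and 0.20 for miR-27a-5p over miR-27b-5p. With 5 added to each count the difference for the arms of miR-23a was 0.15 in place of 0.47. The order of the members was the same under all alternatives run for it, with 8 pairs ordered in every sample. These alternatives rescale libraries, change the added TPM or leave a sample out, so none can undo an order held in every sample. With any sample left out the adjusted p of these 8 pairs was 0.0703 (exact permutation test), the smallest that 5 samples allow for 8 of 9 pairs.

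Samples were not paired by their numbers. Over 295 miRNAs, the deviations from the group mean correlated at -0.20, 0.19 and 0.15 for same-numbered samples. For differently numbered samples the values were -0.28 to 0.27. Deviations within a group are tied to each other, so that these values cannot decide whether the numbers mark a pairing. With the replicate block, 0 members and 0 miRNAs were called (42 unadjusted), miR-27a-3p was at -0.12, miR-27b-3p at 0.067, and the log2 ratio of miR-27a-3p to miR-27b-3p differed by -0.19 (exact permutation p = 0.25, the smallest that 3 pairs allow). Depth limits miR-23a-5p, miR-24-1-5p and miR-24-2-5p, and 3 samples per group limit the tests of ratios.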

Other observations

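miR-24-3p was also a smaller multiple of miR-27b-3p in the overexpression samples, with count ratios of 0.270, 0.237 and 0.274, than in the controls, with 0.275, 0.288 and 0.296. The groups did not overlap, although overexpression replicate 3 and control replicate 1 nearly met. This ratio was chosen after its values were seen and was not tested, and it shares its denominator with the ratio of miR-27a-3p to miR-27b-3p. The ratio of miR-24-3p to miR-23a-3p, by contrast, overlapped between the groups, with 2.04, 1.82 and 1.75 with hsa_circ_0098181, against 1.93, 1.99 and 1.67 with the control plasmid.

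The sum of the 4 miRNAs of the 23a/27a precursors was 3275, 3097 and 3221 TPM in the overexpression samples and 3373, 3575 and 4299 TPM in the controls, which did not overlap (two-sided exact permutation p = 0.1, the smallest possible with 3 against 3, chosen after the values were seen). After TMM normalization, a comparison added after seeing the data, the groups overlapped, with 3364 in overexpression replicate 2 against 3357 in control replicate 1. The sum of miR-23b-3p, miR-27b-3p and miR-27b-5p was 11287, 10889 and 10442 TPM in the overexpression samples and 11034, 11137 and 11901 TPM in the controls, and overlapped. These sums are in TPM, where 70.5% of all miRNAs had a log2 fold change below 0 with the library size alone.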
